A study of Mus musculus with 4 samples.

Results

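Krueppel-like factors (Klf) are zinc-finger transcription factors, and 9 of them that are known in fat cell differentiation were followed here: Klf2, Klf3, Klf4, Klf5, Klf6, Klf7, Klf9, Klf13 and Klf15. They were found by their symbols in the array annotation, which names 22244 genes, and 17 probes report them. Klf4 had 1 probe and each of the other members had 2. The 3T3-L1 cells used are a mouse preadipocyte line that turns into adipocytes after hormonal induction. All cells received insulin (10 μg/mL), dexamethasone (1 μM) and IBMX (0.5 μM, as labelled) with fetal calf serum, and RNA was taken on day 2. DMSO, the solvent of the additives, was at 0.1% in all groups. The control group had DMSO alone, and the others had 100 μg/mL of bilberry extracts, 100 nM of delphinidin or 100 nM of cyanidin. The arrays compare early differentiation with and without the extracts or a single anthocyanidin, the class of pigment they are rich in. Each condition had 1 Agilent one-color array, so no difference given here has a replicate check or a test.

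Klf proteins bind GC-rich boxes and CACCC elements through zinc fingers at their carboxyl end, and they activate or repress depending on the cofactors they recruit. In preadipocytes, Klf4 is induced early by the cAMP signal and activates C/ebpβ, Klf5 follows C/ebpβ and C/ebpδ and activates Pparγ, and Klf6 represses the preadipocyte gene Dlk1. Klf9, Klf13 and Klf15 also promote differentiation, and Klf15 is a glucocorticoid target that induces the insulin-responsive glucose transporter Glut4. Klf2, Klf3 and Klf7 hold differentiation back: Klf2 represses Pparγ, Klf3 represses C/ebpα with the corepressor Ctbp, and forced Klf7 lowers adipocyte genes.

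Signals are given as a multiple of the 75th percentile of the array, which was a processed signal of 861 for DMSO, 576 for bilberry extracts, 1009 for delphinidin and 1016 for cyanidin. The error after ± is the scanner software's own error of the spot carried into the log2 ratio, and it holds nothing of the spread between cultures. Of the 17 probes, 16 had a usable value on all 4 arrays, 16 were well above background on all 4 and none was saturated. The remaining value is that of Klf2 probe A_52_P442031, whose local background the software held to be outlying with DMSO and with cyanidin. The median log2 ratio to DMSO over the 14895 genes well above background on at least 1 array was 0.15 with bilberry extracts, -0.03 with delphinidin and -0.00 with cyanidin. Scaling to spike-in RNA instead moved that median by -1.53 with bilberry extracts, 0.26 with delphinidin and 0.24 with cyanidin, and every member value above 0 with bilberry extracts fell below 0 under it, as does any other bilberry value given here between 0 and 1.53. Values with bilberry extracts are therefore relative to the other genes of the array.

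The labels call these cells adipocytes. Of 7 adipocyte markers, 6 had a signal well above background somewhere and leptin (Lep) did not, and all 6 preadipocyte and fibroblast markers were well above background. The summed scaled signal of the adipocyte markers was 298 with DMSO, 174 with bilberry extracts, 271 with delphinidin and 309 with cyanidin. Fabp4, a fatty acid binding protein, made up most of it, and without Fabp4 the sum was 33.5 with DMSO, 36.3 with bilberry extracts, 39.9 with delphinidin and 51.2 with cyanidin, lowest with DMSO unless spike-in scaling is used. With bilberry extracts 3 of the 6 markers were higher than DMSO (Plin1, Cidec and Cfd) and 3 lower (Fabp4, Adipoq and Retn), and under spike-in scaling the former also fell below 0. For the preadipocyte and fibroblast markers it was 648, 778, 656 and 577 in the same order. Members went both ways there with bilberry extracts: Dlk1, Col1a1 and Col1a2 were higher (all below 0 under spike-in scaling), and Thy1, Pdgfra and Col3a1 were lower. Without Col1a2, a collagen gene that led the sum, it was 371 with DMSO, 375 with bilberry extracts, 357 with delphinidin and 303 with cyanidin. No endothelial marker of 4 was above background. Of 4 macrophage markers, Csf1r (log2 ratio 1.16 with bilberry extracts) and Cd68 were, while the defining Adgre1 and Ptprc were not. Summed signals for the macrophage list lay between 0.0912 and 0.120. The log2 signal of Csf1r with DMSO (-5.86) was near the lowest that the software held to be well above background there (-6.05). The part of these markers in the Klf values was not tested, and fewer cells of a type and less RNA in each cell cannot be told apart in such samples.

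By the brightest usable probe of each gene, taken as its main probe, Klf15 and Klf7 had the lowest ratios to DMSO among the members with each of the 3 additives, and Klf4 and Klf5 had the highest. With marked spots kept, Klf2 probe A_52_P442031 had 0.73 with bilberry extracts, just above Klf5 (0.72). The place of Klf15 was lost under normexp background correction with bilberry extracts (-0.07, above Klf9, Klf13 and Klf6) and with cyanidin (-0.41, above Klf2 and Klf3), and under quantile normalization with cyanidin (-0.52, above Klf2). A count of probes past 2-fold gives 3 of 16 with bilberry extracts, against 13.9% of all 39373 probes with a value, and these were both Klf15 probes and Klf7 probe A_52_P239424. With delphinidin it gives 2 of 16, both Klf15, against 6.9% of all probes. With cyanidin it gives 1 of 16, Klf15 probe A_51_P299339, against 7.41%. All of these were lower than DMSO, a direction that took 7.41%, 4.26% and 5.23% of all probes in the same order, and no member probe was over 2-fold higher in any of the 3. By its measured values, Klf15 probe A_51_P299339 alone was past 2-fold with all 3 additives, against 1.43% of all probes. These counts include that probe although it was not well above background with bilberry extracts or delphinidin, where the bound for bilberry extracts is at least 1.18-fold and does not reach 2-fold. Of the usable member probes, 15 were well above background with every additive and with DMSO, and of these 2 passed with bilberry extracts (11.1% of such probes of the array), 1 with delphinidin (2.41%) and 0 with cyanidin (2.3%). A 1.5-fold threshold gave 6, 4 and 3 of 16, against 30.5%, 15.5% and 16.4%, and a 3-fold threshold gave 1, 1 and 0, against 5.42%, 2.93% and 3.29%. Each count at 2-fold rests on 1 or 2 genes and lies close to what the share of all probes would give, so these counts do not set the members apart, and normexp brought each of the 3 counts to 0. The 3 comparisons share the DMSO array, so a deviation of that array enters all of them alike.

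**Figure D1:**
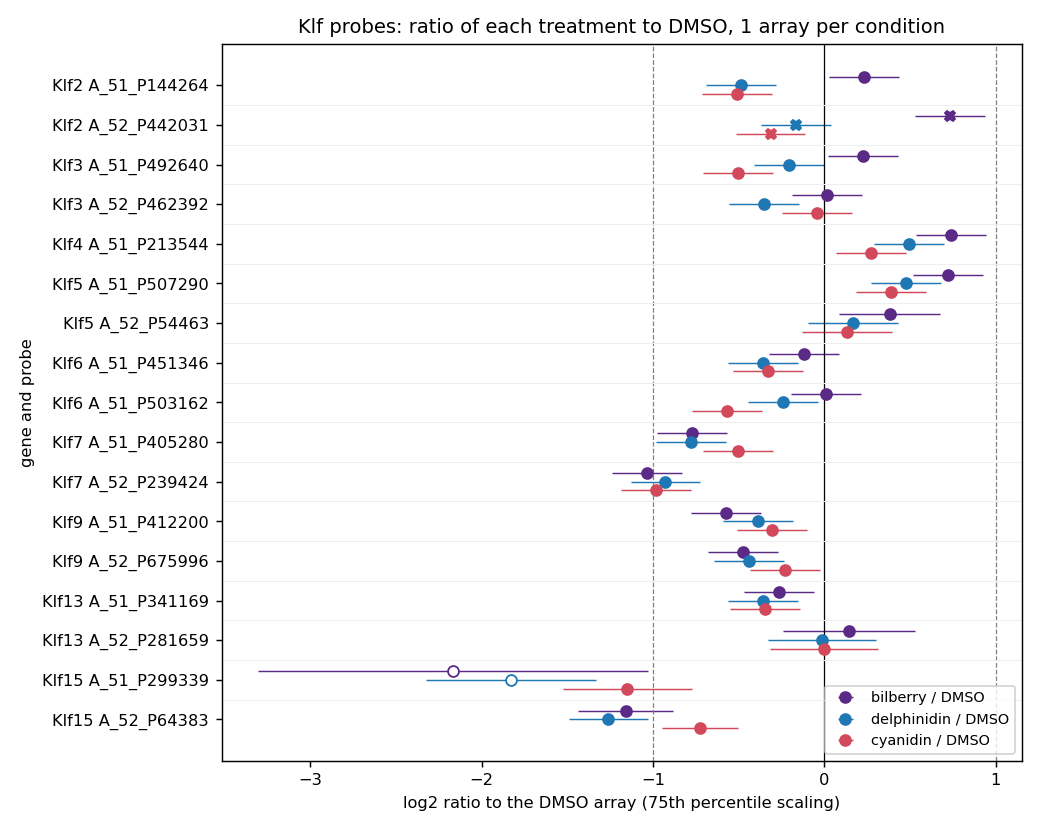
Log2 ratio of each treated array to the DMSO array for the 17 Klf probes, with bars for the scanner software's error. Open circles mark values where the treated array was not well above background, and crosses mark the probe whose local background was marked; Klf7 and Klf15 lie to the left of 0 with all 3 additives except for 1 bilberry value of Klf15 under normexp, while Klf4 and Klf5 lie to the right, where bilberry values turn below 0 under spike-in scaling and the dim Klf5 probe does so for the anthocyanidins under normexp.

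The RefSeq promoters (GRCm38.p6, 250 bases before to 50 after the start) of Klf15 and Klf7, with low ratios, and of Klf4, with high ones, are shown for the boxes of Klf type that these genes carry themselves. Klf5 has no entry in the table used. The Klf15 promoter lies at chr6:90462326-90462625 on the plus strand, that of Klf7 at chr1:64121340-64121639 on the minus strand and that of Klf4 at chr4:55532426-55532725 on the minus strand. Each is written 5′ to 3′ along the gene, and capitals mark 3 of the 5 motifs searched on both strands. The GC box is GGGCGG, which reads CCGCCC when it lies on the opposite strand. The CACCC element appears as GGGTG when it does so. The E-box CACGTG is a palindrome, and the 3 marked motifs do not overlap one another in these promoters, apart from GC boxes that share a base in Klf4.
Klf15: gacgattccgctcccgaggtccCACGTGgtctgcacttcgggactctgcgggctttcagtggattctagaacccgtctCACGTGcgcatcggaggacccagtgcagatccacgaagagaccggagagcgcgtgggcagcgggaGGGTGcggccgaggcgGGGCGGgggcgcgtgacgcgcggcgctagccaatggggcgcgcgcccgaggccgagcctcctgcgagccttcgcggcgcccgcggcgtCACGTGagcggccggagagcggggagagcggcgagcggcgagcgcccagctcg
Klf7: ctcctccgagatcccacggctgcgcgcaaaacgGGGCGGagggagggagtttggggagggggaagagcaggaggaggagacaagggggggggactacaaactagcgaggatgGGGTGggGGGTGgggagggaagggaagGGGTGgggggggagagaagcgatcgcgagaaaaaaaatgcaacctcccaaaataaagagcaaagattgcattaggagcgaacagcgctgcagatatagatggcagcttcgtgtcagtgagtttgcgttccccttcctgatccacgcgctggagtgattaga
Klf4: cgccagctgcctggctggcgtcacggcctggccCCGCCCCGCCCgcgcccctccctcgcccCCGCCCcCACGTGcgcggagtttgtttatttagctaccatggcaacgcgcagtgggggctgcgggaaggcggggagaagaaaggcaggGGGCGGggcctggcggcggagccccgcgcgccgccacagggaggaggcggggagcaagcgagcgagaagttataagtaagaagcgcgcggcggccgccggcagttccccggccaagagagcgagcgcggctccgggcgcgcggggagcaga
Klf15 holds 3 CACGTG, which 3 or more times occurs in 0.0883% of the 32851 promoters of this length and at least once in 7.15%. The starts of these 3 lie at -228, -172 and -3 from the gene's start. Klf7 holds 3 CACCC and no CACGTG, and Klf4 holds 4 GGGCGG and 1 CACGTG but no CACCC. Among the 8 members with an entry, GGGCGG was present in 7, against 35.7% of all promoters, and CACCC in 6, against 57.5%. CACGTG was present in 3 of them, against 7.15%. The cAMP response element core TGACG was found in 6, against 20.8%, and the CCAAT box in 4, against 37.4%. In Klf15 a TGACG on the opposite strand, starting at -6, overlaps the CACGTG at -3. The GC content was 73.3% for Klf15, 58.3% for Klf7 and 74.3% for Klf4, where the median of all promoters was 52.7%. A match is a string of letters only, and no binding was measured.

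Among the activators of differentiation, Klf4 and Klf5 were higher than DMSO with each additive. The Klf4 signal (probe A_51_P213544, mm8 chr4:55549061-55549120) was 3.81 with DMSO, 6.36 with bilberry extracts, 5.36 with delphinidin and 4.60 with cyanidin. DMSO was thus the lowest of the 4 arrays, by a factor of 1.67, 1.41 and 1.21. Klf5, the activator of Pparγ, had signals of 3.90 with DMSO, 6.44 with bilberry extracts, 5.43 with delphinidin and 5.11 with cyanidin at probe A_51_P507290. Its log2 ratios were 0.72 ± 0.20, 0.48 ± 0.20 and 0.39 ± 0.20, and DMSO was again the lowest. None reached 2-fold, and the bilberry values of both genes turned to -0.79 (Klf4) and -0.81 (Klf5) under spike-in scaling. The dim Klf5 probe A_52_P54463, which lies between the ends of the span of the first, had log2 ratios of 0.38 ± 0.29, 0.17 ± 0.26 and 0.13 ± 0.26. Only the bilberry value of this probe exceeded its spot error, and normexp turned the other values to -0.03 with delphinidin and -0.07 with cyanidin.

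Across 12898 genes, the 3 with log2 ratios closest to those of Klf5 over the 3 additives were Alg8, Aaas and Impa2, at distances of 0.0578, 0.0595 and 0.0630. Klf4 was in place 47 of that order, at a distance of 0.119. The order rests on 3 ratios to 1 DMSO array.

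Klf6 and Klf13, both promoters of differentiation, were a little lower with the anthocyanidins. At their main probes this was less than the spot error under spike-in scaling. The Klf6 signal at probe A_51_P451346 was 9.36 with DMSO, 8.62 with bilberry extracts, 7.32 with delphinidin and 7.46 with cyanidin. The anthocyanidin arrays were the lower ones, with log2 ratios of -0.35 ± 0.20 and -0.33 ± 0.20, and the bilberry ratio of -0.12 ± 0.20 was within the spot error. Under spike-in scaling these were -0.09, -0.08 and -1.65, so the bilberry array was the lowest. The other Klf6 probe, A_51_P503162, gave 0.01, -0.24 and -0.57, and spike-in scaling turned its delphinidin value to 0.02. For Klf13 the signal at probe A_51_P341169 was 4.49 with DMSO, 3.74 with bilberry extracts, 3.50 with delphinidin and 3.53 with cyanidin, so DMSO was the highest array. Its log2 ratios of -0.36 with delphinidin and -0.35 with cyanidin moved to -0.10 and -0.10 under spike-in scaling. The second Klf13 probe, A_52_P281659, was dim and did not have DMSO as the highest array, with ratios of 0.14 ± 0.39, -0.01 and -0.00. The signs of the anthocyanidin values turned under several scalings, and that of the bilberry value under spike-in scaling only.

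Klf9, which is induced during differentiation and acts on Pparγ, was highest with DMSO at both of its probes. At probe A_52_P675996 the signal was 4.17 with DMSO, 3.01 with bilberry extracts, 3.08 with delphinidin and 3.56 with cyanidin. At probe A_51_P412200 it was 2.39, 1.60, 1.82 and 1.93 in the same order. The log2 ratios at these probes were -0.47 and -0.57 with bilberry extracts, -0.44 and -0.39 with delphinidin and -0.23 and -0.30 with cyanidin. Spike-in scaling moved the cyanidin value of the first probe to 0.01.

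**Figure D2:**
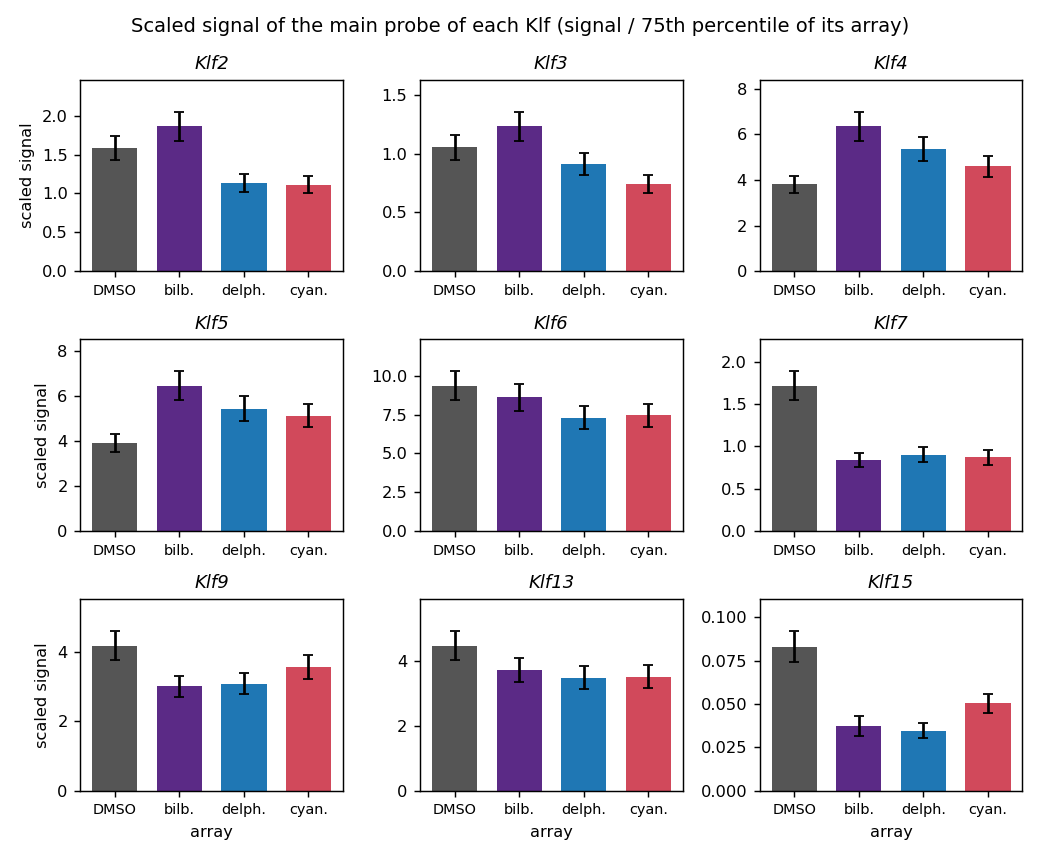
Scaled signal (multiple of the 75th percentile of the array) of the main probe of each Klf gene on the 4 arrays, with bars for the scanner software's error and a separate axis from 0 for each gene. DMSO is the lowest array for Klf4 and Klf5 and the highest for Klf6, Klf7, Klf9, Klf13 and Klf15, and the bilberry bars of Klf2, Klf3, Klf4 and Klf5 fall below the DMSO bars under spike-in scaling, which also puts Klf9 with cyanidin level with DMSO (0.01).

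Klf15, which raises Glut4 and responds to glucocorticoids, was dim on all arrays and lower than DMSO with each additive, except at 1 probe with bilberry extracts under normexp. The processed signal at probe A_52_P64383 (mm8 chr6:90440517-90440576) was 71.6 with DMSO, 21.4 with bilberry extracts, 35.0 with delphinidin and 51.1 with cyanidin. After scaling these were 0.0831, 0.0372, 0.0347 and 0.0503, so DMSO was the highest and cyanidin lay between it and the other two. The log2 ratios were -1.16 ± 0.28, -1.26 ± 0.23 and -0.72 ± 0.22, a signal with DMSO 2.23, 2.40 and 1.65 times as high. Normexp, whose offset of 50 is of the size of these signals, gave -0.07, -0.66 and -0.41, so no value of this probe passed 2-fold under it. Spike-in scaling gave -2.69, -0.9998 and -0.48, with delphinidin just short of 2-fold. At the other probe, A_51_P299339 (mm8 chr6:90439701-90439760), the scaled signal was 0.0263 with DMSO and 0.0118 with cyanidin, a 2.22-fold difference. There it was not well above background with bilberry extracts or delphinidin, with measured values of 0.00585 and 0.00740. DMSO was at least 1.18-fold higher than bilberry extracts and at least 2.44-fold higher than delphinidin, taking as limit the lowest signal that the software still held to be well above background on those arrays. Under normexp the bilberry ratio of this probe turned from -2.17 to 0.19 and the delphinidin ratio moved from -1.83 to -0.44, short of that bound and of 2-fold. The cyanidin ratio moved from -1.15 to -0.45 under normexp, or to -0.88 under quantile normalization and -0.91 under spike-in scaling.

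Genes known downstream of Klf15 and Klf5 are given for the values beside them. Slc2a4, which encodes Glut4, had a scaled signal of 0.431 with DMSO, 0.148 with bilberry extracts, 0.281 with delphinidin and 0.356 with cyanidin, from 8 to 9 usable spots an array. DMSO was the highest array. The SD of the Slc2a4 spots on the log2 scale was between 0.038 and 0.079, a spread within an array only. Spike-in scaling adds 0.24 to the cyanidin ratio of -0.28, which leaves Slc2a4 with cyanidin nearly level with DMSO. Pparg had signals of 16.0, 17.8, 19.8 and 19.9 in that order, lowest with DMSO except that bilberry extracts fell below it under spike-in scaling. Fkbp5, a glucocorticoid target, had log2 ratios of -0.38, 0.01 and 0.09. The 5 measured glucocorticoid response genes had medians of 0.27, 0.01 and 0.09. Of these genes 1, Glul, was past 2-fold (1.05 with bilberry extracts, below 0 under spike-in scaling). Over all probes 13.9% passed 2-fold with bilberry extracts.

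Among the genes that hold differentiation back, Klf7 was lower than DMSO at both probes with each additive. At probe A_52_P239424 (mm8 chr1:63967840-63967899) the signal was 1.72 with DMSO, 0.838 with bilberry extracts, 0.903 with delphinidin and 0.870 with cyanidin. DMSO was 2.05, 1.90 and 1.97 times as high, and the treated arrays differed among themselves by less than the spot error. At probe A_51_P405280 (mm8 chr1:64013046-64013105) the signals were 1.44, 0.845, 0.841 and 1.02, with log2 ratios of -0.77, -0.78 and -0.50. These probes were well above background on every array, and normexp gave the first -0.98, -0.88 and -0.94, short of 2-fold. Under spike-in scaling it had -2.56, -0.67 and -0.74, so it stayed below 0 in each comparison. Of the 15 usable member probes well above background throughout, 2 were over 1.5-fold lower with all 3 additives, A_52_P239424 of Klf7 and A_52_P64383 of Klf15, against 2.09% of such probes of the array. The Klf15 probe falls short of 1.5-fold with cyanidin under quantile normalization (-0.52), spike-in scaling (-0.48) and normexp (-0.41), while that of Klf7 stayed past it under these 3. Over all probes the count is 3 of 16, against 3.45%, where the third is A_51_P299339 of Klf15, whose bound for bilberry extracts lies under 1.5-fold.

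The place on the array was looked at as well. In 4 equal blocks of array rows, singly spotted probes that were bright enough on every array (well above background) were over 2-fold lower than DMSO in 6.77% to 7.12% of cases with bilberry extracts, 1.01% to 2.01% with delphinidin and 1.36% to 2.49% with cyanidin. Probes over 2-fold higher made up 3.9% to 4.32%, 0.795% to 1.17% and 0.33% to 0.584%. The lower share was highest in the third block each time, and the higher share was highest in the fourth block with bilberry extracts, the third with delphinidin and the second with cyanidin. Probes A_52_P239424 of Klf7 and A_51_P299339 of Klf15 lie in the second block, and the other probe of each gene lies in the first, where the lower shares were 6.83%, 1.01% and 1.49%. The probes in the first block were lower than DMSO with each additive as well. The part of array position in these values was not tested.

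Klf2 and Klf3, repressors of Pparγ and C/ebpα, were a little higher than DMSO with bilberry extracts and lower with the anthocyanidins at their main probes. The Klf2 signal at probe A_51_P144264 was 1.59 with DMSO, 1.87 with bilberry extracts, 1.13 with delphinidin and 1.11 with cyanidin. The ratio with bilberry extracts, 0.23 ± 0.20, was just above the spot error and turned to -1.29 under spike-in scaling, while those with delphinidin (-0.48 ± 0.20) and cyanidin (-0.51 ± 0.20) did not turn. The Klf2 probe with the marked background gave 0.73, -0.17 and -0.31 when its spots were kept. The Klf3 signal at probe A_51_P492640 was 1.05 with DMSO, 1.23 with bilberry extracts, 0.912 with delphinidin and 0.742 with cyanidin, lowest with cyanidin. Its other probe, A_52_P462392, had 0.496, 0.501, 0.388 and 0.482 and was lowest with delphinidin, so the Klf3 probes disagreed on which anthocyanidin was lower. Spike-in scaling turned the delphinidin value of the first from -0.21 to 0.05 and the cyanidin value of the second from -0.04 to 0.20.

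Over the 9 genes, each by its main probe, the median log2 ratio was -0.12 with bilberry extracts, -0.36 with delphinidin and -0.35 with cyanidin. Against the median of all genes these were -0.27, -0.33 and -0.34. Below that median lay 5 of 9 genes with bilberry extracts, 7 with delphinidin and 7 with cyanidin.

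**Figure D3:**
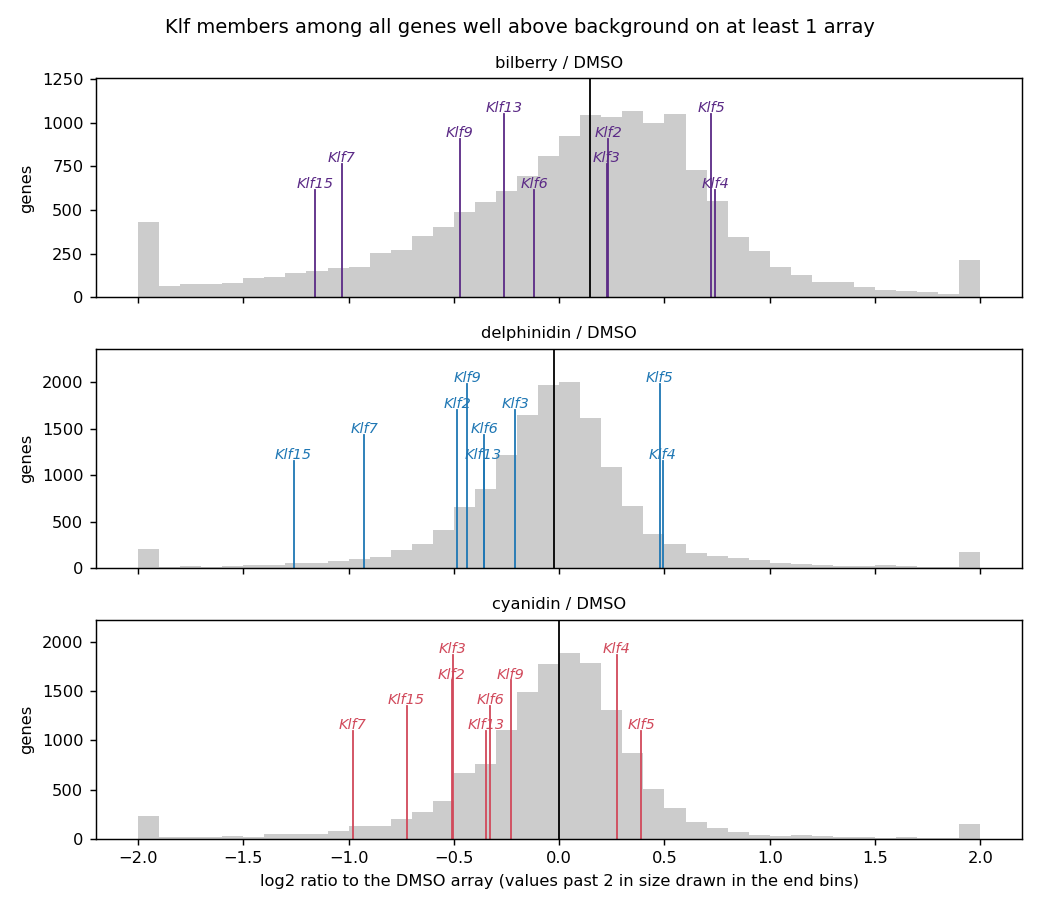
Histograms of the log2 ratio to DMSO of the 14895 genes well above background on at least 1 array, with colored lines for the 9 Klf genes and a black line for the median of all genes. Klf15 (less so under normexp) and Klf7 lie to the left and Klf4 and Klf5 to the right of the median in each panel, and under spike-in scaling the whole bilberry panel would shift by -1.53.

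Delphinidin and cyanidin were given at the same dose and day, and they differ in structure by an additional hydroxyl group on the B-ring of delphinidin. In this 1 pair, 0 of 16 probes differed by over 2-fold, against 6.36% of all probes, and 0 of the 15 that were well above background everywhere, against 0.802%. At 1.5-fold there was 1, Klf15 A_51_P299339, which was not well above background with delphinidin, against 12.6%, and at 3-fold 0, against 2.98%. The largest difference at a probe well above background on both arrays was Klf15 A_52_P64383, where delphinidin was lower by a log2 ratio of -0.54 ± 0.23, or -0.25 under normexp. It lost that place under normexp, where Klf6 A_51_P503162 had 0.32. At the other Klf15 probe cyanidin was at least 1.098-fold higher, a direction that normexp did not keep (0.0068). Klf6 A_51_P503162 was 0.33 higher and Klf3 A_51_P492640 0.30 higher with delphinidin on the log2 scale, but the other probe of each gene gave -0.03 for Klf6 and -0.31 for Klf3. The median over the 9 genes was 0.03, where that of all genes was -0.02. With 1 array for each compound an interval that covers the spread between cultures cannot be given, and equal action of the compounds is not shown.

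**Figure D4:**
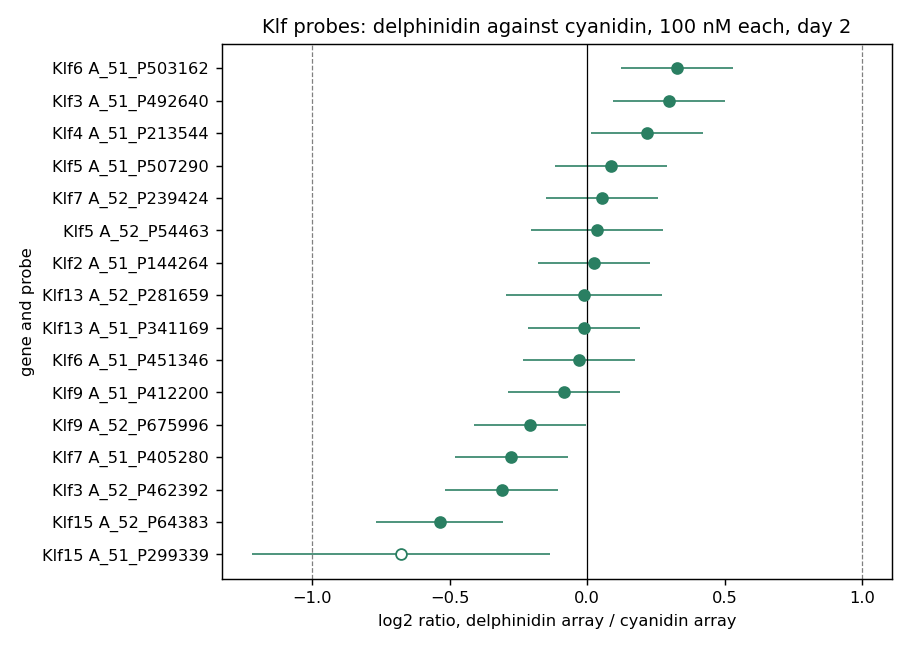
Log2 ratio of the delphinidin to the cyanidin array (100 nM each, day 2) for the 16 Klf probes with a value on all arrays, with bars for the scanner software's error and dashed lines at 2-fold. The Klf15 probes lie farthest to the left, the open circle marks a signal not well above background, and no probe passes the dashed lines. Under normexp A_51_P299339 moved to 0.0068 and A_52_P64383 to -0.25, to the right of Klf3 A_52_P462392 (-0.26).

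Of the 8 other Klf genes listed, 5 were measured above background, and Klf1, Klf8 and Klf14 were not. Their medians were 0.23 with bilberry extracts, -0.34 with delphinidin and -0.25 with cyanidin. Klf11, a TGF-β inducible repressor, had signals of 0.175 with DMSO, 0.156 with bilberry extracts, 0.0935 with delphinidin and 0.117 with cyanidin, lowest with the anthocyanidins. Under spike-in scaling Klf11 was lowest with bilberry extracts. Klf10 (-0.34 with delphinidin and -0.25 with cyanidin) and Klf12 (-0.35 and -0.44) were also lower than DMSO with the anthocyanidins. Spike-in scaling adds 0.26 and 0.24 to these ratios, which leaves Klf10 with cyanidin level with DMSO. Klf16 was higher with each additive, with log2 ratios of 0.90, 0.35 and 0.38, the first of them below 0 under spike-in scaling. Klf17 had a measured log2 ratio of 1.17 with bilberry extracts, but it was not well above background with DMSO, so this is no exact fold. Its log2 signal of -5.10 with bilberry extracts was less than 2-fold above the lowest DMSO signal held to be well above background (-6.05). The 5 measured Sp genes, zinc-finger factors that bind the same GC boxes, had medians of 0.41, 0.05 and -0.05. Spike-in scaling turns the last of these above 0. None of the Sp genes was past 2-fold, against 13.9%, 6.9% and 7.41% of all probes. Among 13 cofactors and turnover genes the medians were -0.02, 0.02 and 0.08. Of these, 2 were over 2-fold lower with bilberry extracts: the deacetylase Hdac2 (-1.29) and the acetyltransferase Ep300 (-1.01). Over all probes 7.41% were that much lower, and with so few genes the count does not set the list apart. Klf3's corepressor genes Ctbp1 and Ctbp2 were not past 2-fold in any comparison.

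In the adipogenic network, 10 of 11 genes were measured and 1 was past 2-fold, Slc2a4 with bilberry extracts (-1.54). Over all probes 13.9% passed 2-fold with bilberry extracts, so this count does not set the list apart. The medians were 0.23, 0.01 and -0.15. Cebpb, upstream of Klf5 and a target of Klf4, had log2 ratios of 0.54, -0.07 and -0.31, and Cebpa, a target of Klf3, had 0.50, 0.20 and 0.32. Dlk1, repressed by Klf6, had 0.31, 0.09 and -0.26. Each bilberry value above 0 among these turned below 0 under spike-in scaling. The cyanidin median of -0.15 and the delphinidin value of Cebpb (-0.07) turned above 0 under it.

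**Figure D5:**
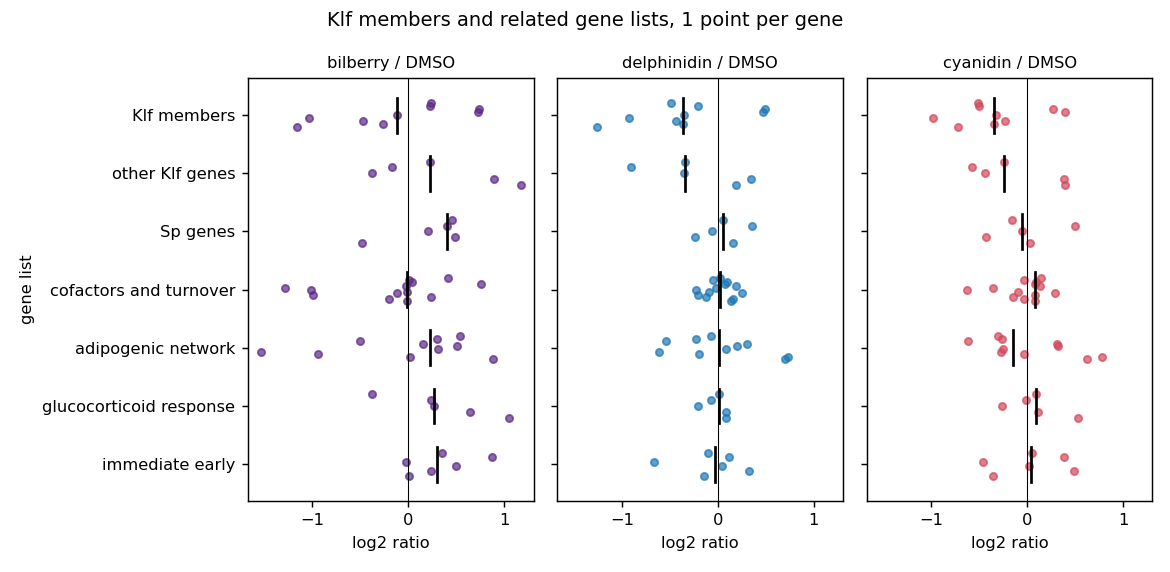
Log2 ratio to DMSO of the Klf members and of related gene lists, with 1 point for each gene well above background on at least 1 array, 1 panel for each additive and a bar at the median of each list. The member medians are -0.12, -0.36 and -0.35, and every bilberry point above 0 falls below 0 under spike-in scaling.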

How the data were processed

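Total RNA of 3T3-L1 cells was labeled with 1 dye and hybridized to 4 Agilent Whole Mouse Genome arrays, which shared 1 slide and 1 scan. The authors deposited the output of Feature Extraction (9.5.1.1 per the file headers), in which the processed signal of a spot is an intensity with the local background subtracted. The deposited series table repeats that intensity (largest relative difference 0). As in the authors' methods, the signal was then divided by its array's 75th percentile, here over 43379 non-control spots, and taken to log2. Control spots and spots marked as outliers were left out, spots of a probe were averaged, and a gene was represented by its brightest probe with a value on all 4 arrays. Names came from the array files, with 24375 probes matched by accession to RefSeq (GRCm38.p6). Probe positions refer to mm8 as the files give them, and no exon or UTR annotation of that build was used here.

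With 1 array a condition, differences were described by size, with 2-fold as the threshold, and precision is limited by how few arrays there are. The named genes are all 9 members with all their probes, the list genes past 2-fold with a signal well above background on an array of that comparison, Pparg, Cebpa, Cebpb, Dlk1 and Slc2a4 as genes that members control, and the 3 genes closest to Klf5 by Euclidean distance of the log2 ratios among genes well above background throughout. Other list genes in the text, with Klf11 and Fkbp5 and the markers among them, fall outside this rule and were chosen after their values were seen. Members and lists (other Klf genes, Sp genes, cofactors and turnover, adipogenic network, glucocorticoid response, immediate early genes, and markers of 4 cell types) were chosen with earlier results of these data known. Alternatives were quantile normalization, median scaling, a percentile with control spots, spike-in scaling, limma normexp with an offset of 50, marked spots kept, the deposited table, filters on dim probes, other thresholds and the mean over probes. The split of the array into 4 blocks of rows was chosen after seeing the data. Calculations were tested on simulated data. Normexp was run in limma 3.58.1 (R 4.3.3). The other steps used pandas 2.3.3 and numpy 2.4.6 under Python 3.11.15, and matplotlib 3.10.9 drew the plots.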

Additional observations from a re-analysis of the deposited data

How the results depend on the processing

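Counts of member probes past 2-fold with bilberry extracts (3), delphinidin (2) and cyanidin (1) depended on the processing. Normexp gave 0, 0 and 0, spike-in scaling 14, 1 and 0, a 1.5-fold threshold 6, 4 and 3, and a 3-fold threshold 1, 1 and 0. Under spike-in scaling the median over all genes with bilberry extracts was itself -1.38, so the 14 do not set the members apart. Shares of all probes under normexp, spike-in scaling, quantile normalization and the filter on both arrays are not given here. Counts under these settings are thus no result about the members. For cyanidin, quantile normalization gave 0 and a filter for probes well above background on all 4 arrays gave 0. For delphinidin that filter gave 1, as did the filter on both arrays. Between delphinidin and cyanidin, where 0 probes passed 2-fold, a 1.5-fold threshold gave 1. The member median relative to all genes moved to -0.36 with bilberry extracts, -0.40 with delphinidin and -0.43 with cyanidin under quantile normalization. Normexp gave -0.26 with delphinidin and -0.27 with cyanidin, and the mean over probes -0.25 and -0.24. The Klf15 probe A_51_P299339 turned to 0.19 with bilberry extracts under normexp. The cause of these moves was not tested. Of the 64 log2 ratios of member probes, the sign differed for 16 under spike-in scaling, 6 under quantile normalization, 4 under normexp and 2 each under a percentile with control spots and median scaling. The deposited table and the marked spots kept turned none. No paired analysis was possible because each group has 1 array and the labels give no replicate numbers. The dim probes of Klf5, Klf13 and Klf15 are limited by their signal over background.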

Other observations

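Some genes of the lists that are no Klf gene also differed from the DMSO array. Thy1, a fibroblast surface protein, had a scaled signal of 65.2 with DMSO, 28.4 with bilberry extracts, 34.1 with delphinidin and 35.7 with cyanidin, so the 3 treated arrays were lower. Thy1 does not stand for its list of preadipocyte and fibroblast markers. With delphinidin Dlk1, Col1a1, Col1a2 and Col3a1 were higher than DMSO and Pdgfra lower, and with cyanidin these 5 were lower. The list had median log2 ratios to DMSO of 0.14 with bilberry extracts (below 0 once scaled by the spike-ins), 0.06 for delphinidin and -0.19 for cyanidin. Cfd, the adipocyte-secreted complement factor adipsin, had 0.265, 0.462, 0.589 and 0.894 in that order, lowest with DMSO and past 2-fold with delphinidin and cyanidin, while its bilberry ratio of 0.80 turns below 0 under spike-in scaling. Among the other adipocyte markers, Plin1 and Cidec were higher with both anthocyanidins, Fabp4 was lower with both, and Adipoq and Retn were lower with delphinidin and higher with cyanidin, for list medians of -0.39, -0.01 and 0.44 in the same order over the 6 genes well above background. Spike-in scaling adds 0.26 to every log2 ratio with delphinidin and 0.24 to every one with cyanidin, so the lower values named here for these arrays turned above 0, except those of Thy1 with both and Dlk1 with cyanidin, and the medians of -0.01 and -0.19 turned too. Adipoq (adiponectin) and Retn (resistin) were over 2-fold lower with bilberry extracts alone, with log2 ratios of -1.07 and -1.08. The 6 immediate early genes had medians of 0.30, -0.03 and 0.04. Under spike-in scaling the first of these turns below 0 and the second above 0. None of the 6 was past 2-fold, against 13.9%, 6.9% and 7.41% of all probes.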
